A study of Mus musculus with 55 samples.

Results

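The 10 genes described here encode the AMPA and NMDA receptor subunits Gria1, Gria2, Gria3, Gria4, Grin1, Grin2a, Grin2b, Grin2c, Grin2d and Grin3a. They were chosen by gene family from the 45318 Ensembl identifiers in the count tables, and all 10 were among the 18283 genes that passed the low-count filter. Mean levels ran from 565 TPM, a scale of transcript abundance per length, for Gria1 to 1.10 for Grin2d, and 1 of the genes, Gria2, differed between housing conditions, with less RNA in mice raised in an enriched environment (EE) than in mice raised in standard housing (SH), a difference of -5.08%. That difference sat close to the threshold of the test and did not pass it under several other settings. No subunit passed the test between mice exposed to chronic social defeat stress (CSDS) and unstressed mice, or between susceptible (SUS) and resilient (RES) mice.

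Bulk RNA was sequenced from the ventral dentate gyrus of male C57BL/6J mice, with no genetic change in any group. Mice entered SH or EE at 21 days of age for 8 weeks, were then left unstressed as controls or went through 10 days of CSDS with CD1 aggressors, and gave tissue at 90 days of age. Defeated mice were sorted by their social interaction with an aggressor, with a ratio above 1 for RES and below 1 for SUS, so these 2 classes were read from behavior and not assigned. There were 27 SH mice (10 control, 7 RES and 10 SUS) and 27 EE mice (9 of each kind), or 54 mice in all, and control mouse 9 of EE was sequenced in 2 runs that were summed.

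AMPA and NMDA receptors are ion channels opened by glutamate, and each is built of several subunits around a shared pore. AMPA receptors carry most of the fast excitatory current at central synapses, and the edited GluA2 subunit, made from Gria2, keeps calcium from passing. NMDA receptors need the GluN1 subunit, made from Grin1, together with GluN2 or GluN3 subunits, which set how long the channel stays open and how strongly magnesium blocks it, and their calcium current starts many forms of synaptic plasticity. In the dentate gyrus these receptors sit on granule cells at the synapses of the perforant path, and also on interneurons, mossy cells and glia.

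The members differ at the pore, and 1 codon there sets much of the calcium permeability, so the coding sequence around it is shown for the 4 AMPA subunits and for 4 NMDA subunits. Each run holds 45 bases from GENCODE vM21 transcripts of GRCm38, written 5′ to 3′ on the coding strand, with the codon of the Q/R site (AMPA) or the N site (NMDA) in capitals.
Gria1 (chr11:57243070-57243114, plus strand, exon 11 of 16): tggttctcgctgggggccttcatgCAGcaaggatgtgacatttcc
Gria2 (chr3:80706893-80706937, minus strand, exon 11 of 16): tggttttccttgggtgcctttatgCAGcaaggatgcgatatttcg
Gria3 (chrX:41610241-41610285, plus strand, exon 11 of 16): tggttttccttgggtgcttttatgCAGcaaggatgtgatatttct
Gria4 (chr9:4464119-4464163, minus strand, exon 12 of 17): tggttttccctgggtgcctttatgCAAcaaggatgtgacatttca
Grin1 (chr2:25297295-25297412, minus strand, across an exon junction): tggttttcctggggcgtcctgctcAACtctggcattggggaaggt
Grin2a (chr16:9653543-9653587, minus strand, exon 10 of 14): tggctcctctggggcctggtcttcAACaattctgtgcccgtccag
Grin2c (chr11:115253845-115253889, minus strand, exon 11 of 15): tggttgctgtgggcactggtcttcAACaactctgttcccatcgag
Grin2d (chr7:45854375-45854419, minus strand, exon 8 of 12): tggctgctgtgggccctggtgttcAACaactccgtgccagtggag

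The genomic codon at the Q/R site reads as glutamine in all 4 AMPA genes, Gria2 included. In the RNA of Gria2 an adenosine of this codon is edited by the product of Adarb1 so that arginine is made, and counts per gene do not register that editing. Over the 45 bases Gria2 and Gria3 were the closest pair of AMPA genes, with 93.3% of bases identical, and Gria1 shared 82.2% with each of them. Grin2c and Grin2d shared 82.2%, and Grin2a shared 80.0% with each of them. Grin3a lies at chr4:49661611-49845744 on the minus strand. Between the AMPA and the NMDA genes shown, identity ran from 24.4% to 48.9%.

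Each mouse had between 16760009 and 45872357 read pairs on genes, with a median of 21552884, and the highest is the mouse sequenced in 2 runs. The tissue label was checked against marker genes. All 6 granule cell markers were present in every mouse, with Prox1, a transcription factor of granule cells, at 79.6 to 210.0 CPM, that is, counts scaled to the size of the library. Markers of neighboring tissue were present as well, and the summed level of 6 thalamus markers ran from 96.8 to 673.9 CPM over the mice. In bulk tissue fewer cells of a type and less RNA per cell cannot be told apart, which holds for every level given here.

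Per length of their merged exons, on the TPM scale, the subunits spanned more than 2 orders of magnitude. Gria1 had 565 ± 32.1 TPM (SD, n = 54) and Gria2 255 ± 17.2, and these 2 AMPA subunits stood above every NMDA subunit in every mouse. Of the NMDA subunits, Grin2a had 104 ± 9.16 TPM, Grin2b 76.9 ± 8.79 and Grin1 69.8 ± 6.08. The remaining AMPA subunits followed, with Gria3 at 58.9 ± 3.47 TPM and Gria4 at 40.7 ± 3.53. Lowest were Grin2c, Grin3a and Grin2d, which encode subunits known best from cerebellum and glia, from the juvenile brain, and from interneurons and diencephalon, at 17.2 ± 2.26, 10.1 ± 1.16 and 1.10 ± 0.469 TPM. Each neighboring pair in this order kept its order in 54 of 54 mice, except Grin2b above Grin1, which held in 51 of 54. Merged exons include long untranslated ends (15548 bases for Gria2 against 6043 for Gria1), so the level per length depends on this choice of length. The same lengths were used for every mouse, so agreement between mice does not bear on that choice. In mean CPM, not divided by length, some neighbors stood in the opposite order. These were Gria1 and Gria2 (1239 and 1437 CPM), Grin2a and Grin2b (677 and 692), and Grin2c and Grin3a (31.5 and 45.2).

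**Figure D1:**
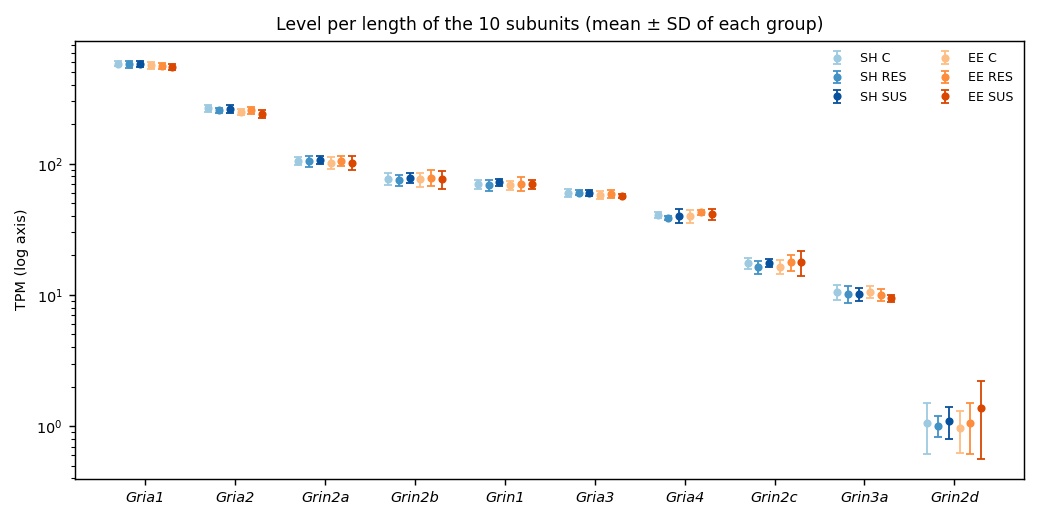
Mean level per length in TPM on a log axis for each subunit (horizontal axis), with a point and an SD bar for each of the 6 groups. Gria1 is highest at 565 TPM over all mice and Grin2d lowest at 1.10. The 6 group means lie close together for every subunit but Grin2d, whose means run from 0.972 TPM in EE control to 1.38 in EE SUS mice.

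Strand mattered for 2 members. The antisense transcript Grin1os covers 13.5% of the exon bases of Grin1, and with unstranded counts, in which read pairs on both genes are dropped as ambiguous, the level of Grin1 was 40.9 TPM. Gm45441 lies opposite 9.66% of Grin2d, and for Grin2d the median reverse-strand count of 51.5 per mouse was matched by 55.5 on the other strand, which was the larger in 27 of 54 mice. Grin2d is thus measured by few read pairs, between 24 and 155 a mouse, whereas Gria2 had between 23429 and 65308.

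The composition of the AMPA family was steady across mice. Of the summed TPM of the 4 AMPA genes, Gria1 made up 61.5% ± 1.18 and Gria2 27.7% ± 1.18 (SD, n = 54). These shares depend on the merged exon lengths, 6043 bases for Gria1 and 15548 for Gria2. In mean CPM Gria2, at 1437, stood above Gria1, at 1239. The ratio of Grin2a to Grin2b, whose products confer faster and slower channel closing, was 1.36 ± 0.0865 on the TPM scale. That ratio depends on the merged exon lengths, 17933 bases for Grin2a and 24842 for Grin2b. In CPM, which is not divided by length, Grin2a had a mean of 677 and Grin2b of 692. In EE mice the Gria2 share was 27.5% ± 1.11 (n = 27) and in SH mice 27.9% ± 1.24 (n = 27). The Grin2a to Grin2b ratio was 1.35 ± 0.0975 in EE mice and 1.37 ± 0.0732 in SH mice. Neither difference exceeded the spread between mice, and none of 9 two-sided permutation tests of these shares and this ratio by housing, defeat or phenotype passed (smallest p = 0.230, adjusted p = 0.953 over the 9 tests). These ratios were chosen after the levels had been seen.

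The members also differed in how far mice of the same group lay apart. The coefficient of variation within groups was 4.20% for Gria1, 4.52% for Gria3 and 5.22% for Gria2. It was 6.68% for Grin2a, 7.84% for Grin1, 8.40% for Gria4 and 9.94% for Grin2b. It reached 11.1% for Grin3a and 11.3% for Grin2c, and 40.9% for Grin2d with its few counts. Against this spread the group means were close, and the highest group mean exceeded the lowest by a factor of 1.03 for Grin2b to 1.12 for Grin3a, and of 1.41 for Grin2d.

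**Figure D2:**
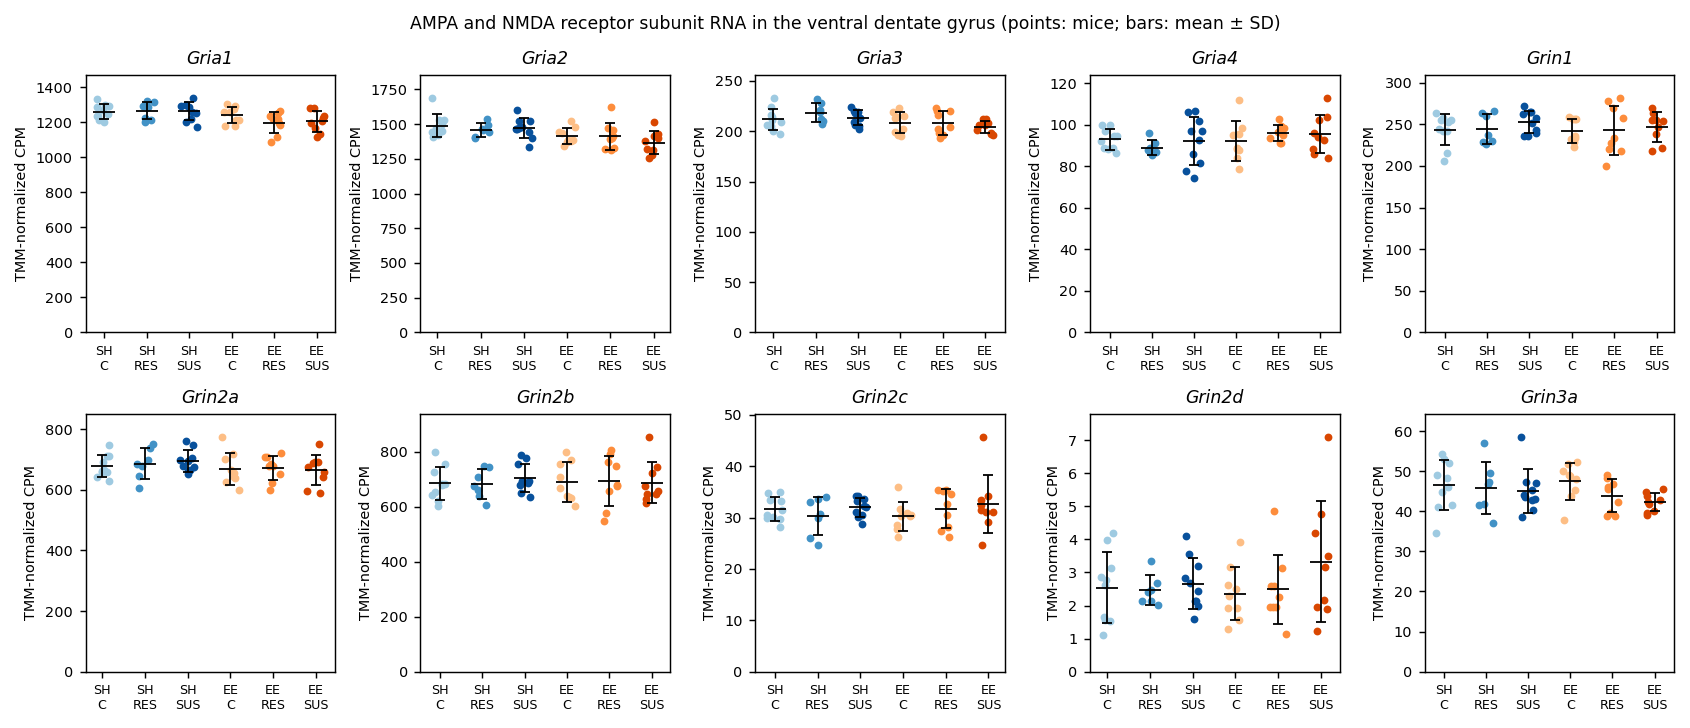
Level of each subunit in normalized CPM (vertical axes from 0) in the 6 groups (horizontal axes), with 1 point per mouse and bars for the mean ± SD. The groups overlap for every subunit, and Grin2d, at 1.10 to 7.09 CPM, spreads widely within groups.

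Housing was compared first, since EE was the study's test of whether raising conditions alter the response to stress. In control mice the level of Gria2 had a lowest, median and highest value of 1408, 1462 and 1689 CPM in SH and 1346, 1389 and 1522 in EE. In RES mice it was 1400, 1461 and 1534 CPM in SH and 1315, 1401 and 1625 in EE. In SUS mice it was 1335, 1470 and 1600 CPM in SH and 1257, 1377 and 1513 in EE. The EE median was lower in all 3 phenotypes, and the ranges overlapped in each. Over all phenotypes Gria2 had 1399 ± 80.8 CPM in EE (n = 27) and 1474 ± 69.5 in SH (n = 27), with 22 of 27 EE mice below the SH median and 7 below the lowest SH mouse. The fitted log2 fold change was -0.07 (SE 0.02), with an adjusted p of 0.0493 by edgeR's quasi-likelihood test, with p-values adjusted by Benjamini-Hochberg over all genes tested. Gria2 was thus 1 of 10 members called, beside 442 of all 18283 genes tested, or 2.42%, of which those lower in EE were 1.54%.

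Gria1, which encodes the subunit most tied to activity-dependent insertion of AMPA receptors, had 1215 ± 57.1 CPM in EE and 1264 ± 46.0 in SH, a difference of -3.84%. The lowest, median and highest levels in control mice were 1200, 1258 and 1336 CPM in SH and 1178, 1257 and 1303 in EE. In RES mice they were 1205, 1287 and 1320 CPM in SH and 1088, 1218 and 1263 in EE. Control mice of both housings thus covered much the same range, and the EE values reached lower in defeated mice, where SUS mice had 1172, 1275 and 1340 CPM in SH and 1118, 1211 and 1285 in EE. Gria1 was below the SH median in 22 of 27 EE mice, but its log2 fold change of -0.06 (SE 0.02) did not pass the edgeR test (adjusted p = 0.0738).

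Gria3, an X-linked AMPA subunit gene, had 207 ± 9.60 CPM in EE and 214 ± 9.28 in SH, with 18 of 27 EE mice below the SH median and a log2 fold change of -0.05 (SE 0.02, edgeR adjusted p = 0.114). Gria4, whose product is known from interneurons and from fast synapses outside the hippocampus, had the opposite sign, with 94.5 ± 7.97 CPM in EE and 91.5 ± 7.77 in SH (log2 fold change 0.05, SE 0.03, edgeR adjusted p = 0.449). That sign was not stable, and the log2 fold change of Gria4 was 0.01 with scores of choroid plexus, thalamus, CA1 and CA3 markers in the model and -0.01 with granule cell and oligodendrocyte scores. The values of both genes overlapped between housings.

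Among the NMDA subunits no housing difference passed. Grin1, the obligatory subunit, had 244 ± 20.7 CPM in EE and 247 ± 16.6 in SH, and Grin2a had 668 ± 46.9 and 685 ± 39.3. Grin2b, the GluN2 subunit prominent in early life, had 691 ± 76.6 CPM in EE and 692 ± 54.8 in SH, a log2 fold change of -0.000835 (SE 0.04). Grin2c had 31.5 ± 4.17 and 31.4 ± 2.62 CPM, Grin2d 2.73 ± 1.33 and 2.57 ± 0.808, and Grin3a 44.6 ± 4.24 and 45.8 ± 5.79. The edgeR adjusted p of these 6 genes was 0.484 or higher. Over the 10 members 7 were lower in EE, with a median log2 fold change of -0.03, while the median over all genes tested was 0.00 (0.00433). At an unadjusted p under 0.05, 3 members were lower, beside 8.7% of all genes tested that were lower and 17.6% in either direction.

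Of 12 lists of marker genes, 3 held genes that passed the test between housings. Of 6 granule cell markers 5 were lower in EE and 2 were called, Tdo2 (log2 fold change -0.28, SE 0.07, edgeR adjusted p = 0.0214) and Dsp (-0.30, SE 0.08, adjusted p = 0.0281), and their summed level ranged from 316 to 738 CPM in EE with a median of 513, and from 372 to 705 in SH with a median of 576. The 5 oligodendrocyte markers were all higher in EE and 1 of them was called, with sums of 504 to 1224 CPM and a median of 843 in EE, and of 502.5 to 1364 with a median of 675 in SH. The 4 endothelium markers were all higher in EE and 1 was called, Flt1, which encodes a VEGF receptor (log2 fold change 0.23, SE 0.06, edgeR adjusted p = 0.0186), with sums of 79.5 to 133.6 CPM and a median of 102.2 in EE, and of 78.3 to 112.7 with a median of 88.6 in SH. The 6 thalamus markers had positive log2 fold changes with 0 called, and their summed medians were almost equal, at 187.9 CPM in EE (96.96 to 673.9) and 187.6 in SH (96.8 to 455). No marker of these lists was at 0 in all mice. With the granule cell and oligodendrocyte scores added to the model, an alternative chosen after seeing the data, the log2 fold change of Gria2 was -0.05 (SE 0.02, edgeR adjusted p = 0.353). With scores of choroid plexus, thalamus, CA1 and CA3 in the model it was -0.06 (adjusted p = 0.0753). The part of these cell types in the Gria2 difference was not tested beyond these fits.

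Within single phenotypes no member passed the test between housings. EE against SH control mice gave 0 members beside 0.00547% of all genes tested. EE against SH RES mice gave 0 beside 0.273%, and EE against SH SUS mice 0 beside 0.00547%. Gria2 had log2 fold changes of -0.07 (SE 0.04) for unstressed, -0.04 (SE 0.04) for RES and -0.10 (SE 0.04) for SUS mice, with unadjusted edgeR p of 0.0523, 0.262 and 0.00542 and adjusted p of 0.976, 0.599 and 0.492. Gria1 had -0.02, -0.08 and -0.07 (each SE 0.03) in the same order. The housing difference of Gria1 thus lay nearer 0 in control than in defeated mice, but the difference between defeat effects in EE and in SH, -0.05 (SE 0.04, edgeR adjusted p = 0.828), did not pass.

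**Figure D3:**
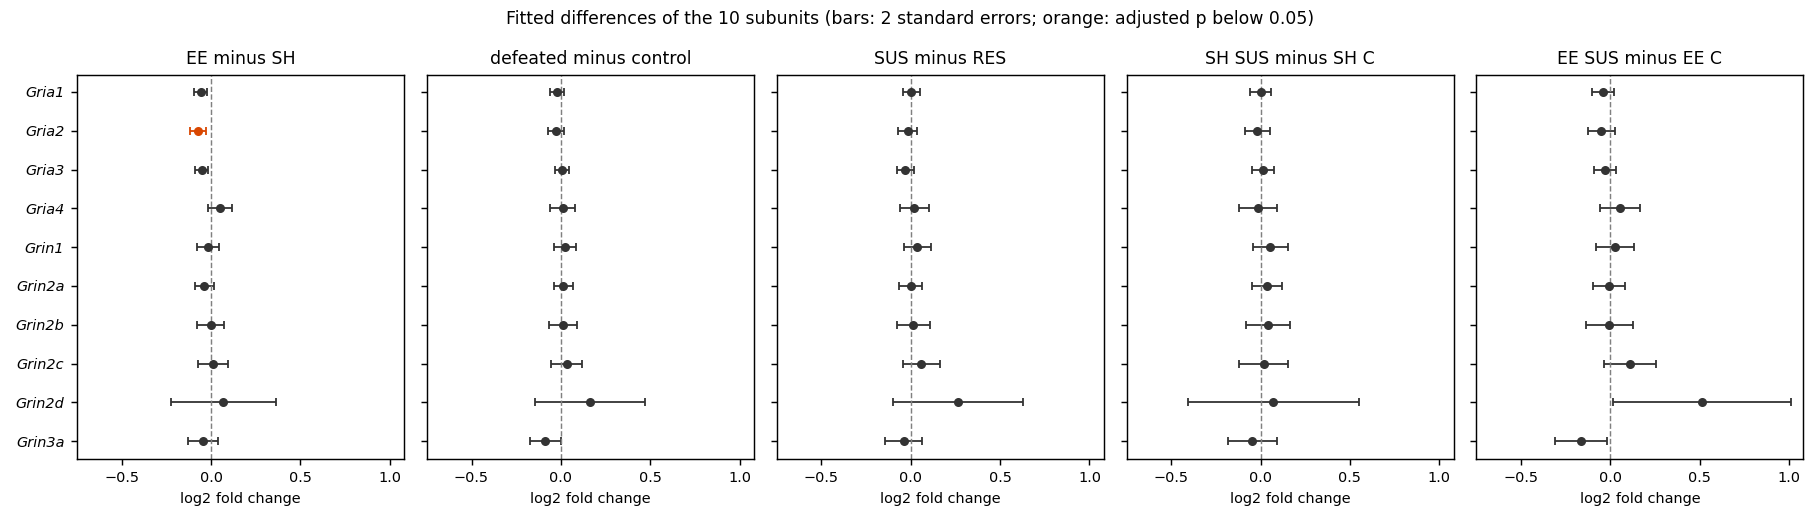
Fitted log2 fold change (horizontal axes) of each subunit with bars of 2 standard errors in 5 comparisons, EE minus SH, defeated minus control, SUS minus RES, SH SUS minus SH C and EE SUS minus EE C. Gria2 in EE minus SH, at -0.07, is the only point with an edgeR adjusted p below 0.05, and Grin2d has the widest bars.

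Defeat was compared next, over 35 defeated and 19 control mice of both housings. No member was called, beside 8 genes or 0.0438% of all genes tested, and 0 members reached an unadjusted p under 0.05 with edgeR, beside 4.81% of all genes. Grin3a, which encodes a subunit that lowers calcium permeability and is most abundant in the juvenile brain, came nearest, at a log2 fold change of -0.09 (SE 0.04, unadjusted p = 0.0518, adjusted p = 0.986). The lowest, median and highest levels of Grin3a were 34.7, 47.2 and 54.4 CPM in SH control, 37.1, 46.7 and 57.0 in SH RES, and 38.6, 43.8 and 58.5 in SH SUS mice. They were 37.7, 48.8 and 52.3 CPM in EE control, 38.9, 45.5 and 49.1 in EE RES, and 39.2, 42.4 and 45.6 in EE SUS mice. Defeated EE mice did not reach the highest control values, but all ranges overlapped.

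The remaining members had defeat differences of at most 0.03 in size on the log2 scale, rounded, apart from Grin2d at 0.16 (SE 0.15). SUS against RES mice of both housings gave 0 called genes and 0 members (0% of all genes tested), with 0 members also at an unadjusted p under 0.05 beside 3.67% of all genes. The difference between housings in the effect of defeat, and in that of SUS against RES, likewise gave 0 members beside 0% and 0%. The test for any difference among the 6 groups gave 0 members beside 0.35% of all genes. Its unadjusted edgeR p was 0.0164 for Gria2 and 0.0351 for Gria1, with adjusted p of 0.321 and 0.402. At an unadjusted p under 0.05 stood 2034 of all 18283 genes tested.

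In SH, SUS against control mice gave 0 members beside 0.0328% of all genes tested, and RES against control and SUS against RES mice gave 0 beside 0% each. In EE the 3 comparisons among phenotypes gave 0 members beside 0% each. Over the 9 comparisons of 2 groups, 7 of 90 tests of members had an unadjusted p under 0.05 with edgeR, beside 6.55% of the tests of all genes. Leaving Grin2d aside, no fitted difference exceeded 0.17 on the log2 scale. Over these comparisons the intervals of 2 standard errors, as percent change, ran from -9.74% to 5.25% for Gria1, from -11.6% to 6.43% for Gria2 and from -9.09% to 8.04% for Gria3. They ran from -9.004% to 11.6% for Grin1, from -9.80% to 8.66% for Grin2a and from -10.7% to 13.3% for Grin2b. They were wider for Gria4 (-11.8% to 17.5%), Grin2c (-13.9% to 19.2%) and Grin3a (-19.3% to 12.2%), and widest for Grin2d (-35.1% to 101.6%). By the study's own criterion, an unadjusted p under 0.05 by limma and a fold change above 1.3, 0 members were called in any of 14 comparisons, beside 1.35% of the tests of all genes.

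The EE SUS mice had 2 members at an unadjusted p under 0.05 against EE control mice, beside 7.9% of all genes. Grin3a had a log2 fold change of -0.17 (SE 0.07, unadjusted p = 0.0250, edgeR adjusted p = 0.566). Grin2d had a log2 fold change of 0.51 (SE 0.25, unadjusted p = 0.0440, edgeR adjusted p = 0.619). The levels of Grin2d had a lowest, median and highest value of 1.304, 2.29 and 3.92 CPM in EE control and 1.22, 3.17 and 7.09 in EE SUS mice. The ranges overlapped, and 3 EE SUS mice, at 4.20, 4.77 and 7.09 CPM, lay above all EE control mice.

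Thalamus markers were high in these 3 mice, and in 1 EE SUS mouse whose Grin2d was not above the controls. EE SUS mouse 8, the highest in Grin2d, had 587.4 CPM summed over the 6 markers, mouse 6 had 538 and mouse 5 had 407, while EE control mice ran from 110.4 to 249.8 with a median of 141. EE SUS mouse 1 had 585.2 CPM of thalamus markers, but its Grin2d level of 3.505 CPM lay within the EE control range. Without the 5 mice of highest thalamus score, which were EE SUS mice 1, 6 and 8, EE RES mouse 6 and SH SUS mouse 3, the log2 fold change of Grin2d was 0.05 (SE 0.25), and that of Grin3a was -0.15 (SE 0.08). EE SUS mouse 5 stayed in that fit. With the 4 tissue scores in the model that of Grin2d was -0.06 (SE 0.14). Leaving out these 5 mice was chosen after seeing the data.

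How the members vary together was examined over the 54 mice, as Pearson's r and Spearman's rho of log2 CPM after group means were subtracted. Of the 45 pairs of members 22 passed after adjustment over the pairs (permutation test of r, two-sided, highest adjusted p = 0.0453), 14 positive and 8 negative, and 18 of these 22 passed by rho as well. The closest pair was Grin2a and Grin2b (r = 0.750, rho = 0.766, permutation p = 1e-05 for each, the smallest that the resamples can give), with r = 0.723 without the 2 mice farthest from the median. Grin1 followed Grin2b (r = 0.715, rho = 0.713), and Gria3 was the AMPA gene closest to an NMDA gene, also Grin2b (r = 0.697, rho = 0.750). Other AMPA genes had positive relations that passed by r and rho as well, Gria1 with Grin1 (r = 0.406) and Grin2a (r = 0.436), and Gria4 with Grin2d (r = 0.434). Negative relations were not confined to 1 AMPA gene. Gria4 had r = -0.474 and rho = -0.461 to Grin2a, which passed by both. Gria1 had r = -0.319 to Gria4 and r = -0.314 to Grin2d, which passed by r alone. More of the 8 negative pairs held Gria2 than any other member. Gria2 had r = -0.601 and rho = -0.495 to Grin1 and r = -0.427 and rho = -0.339 to Grin2b. To Grin2d it had r = -0.527 and rho = -0.419, and to Gria4 r = -0.322 and rho = -0.355, which passed by both. Its r of -0.313 to Grin2c passed by r alone. The r of Gria2 to Grin2b was -0.284 without the 2 farthest mice. Gria1 and Gria2, the most abundant pair, did not pass, and neither did any pair with Grin3a.

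**Figure D4:**
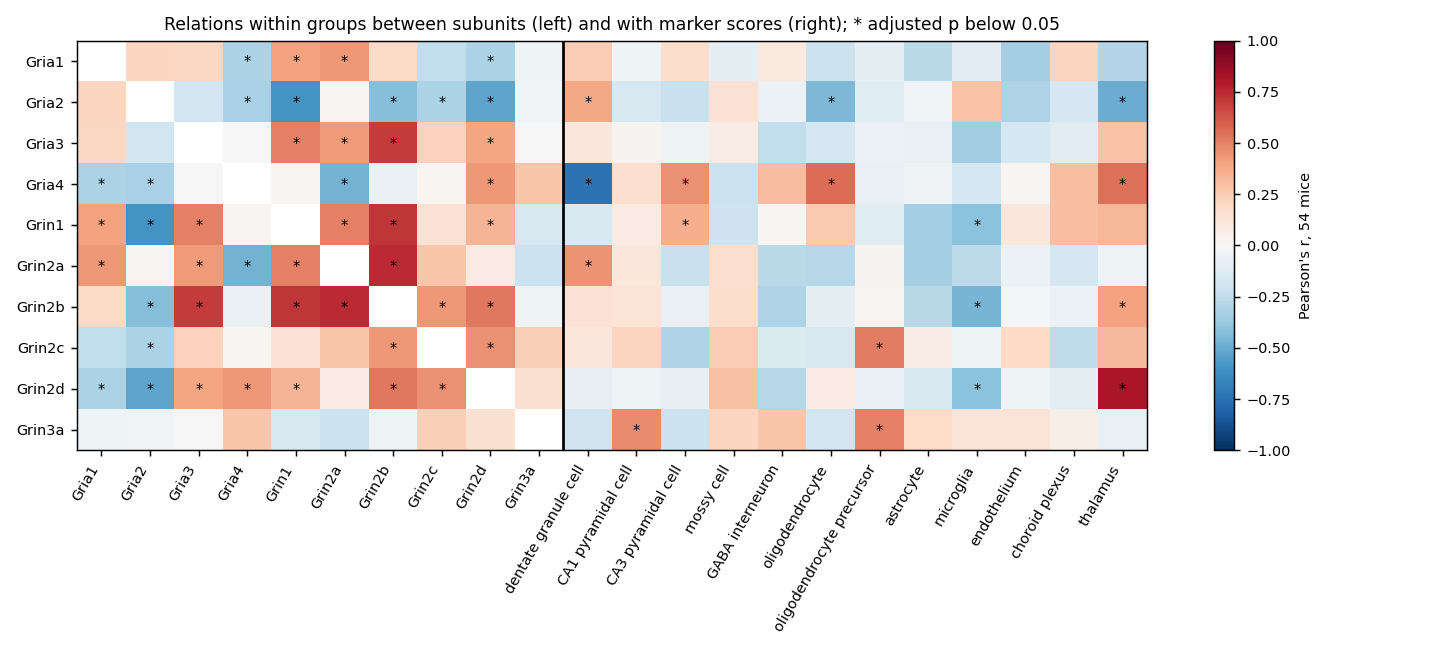
Pearson's r over 54 mice after group means were subtracted, for each subunit (rows) with the other subunits (left) and with marker scores (right), red for positive, blue for negative, stars for an adjusted permutation p below 0.05. Grin1, Grin2a, Grin2b and Gria3 form a red block, and Grin2d with thalamus markers, at 0.815, is the darkest cell on the right.

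Of 120 relations of members with 12 marker scores 17 passed by r (permutation test, two-sided, adjusted over the 120, highest adjusted p = 0.0478), and 11 of these passed by rho as well. Grin2d rose with thalamus markers (r = 0.815, rho = 0.832, permutation p = 1e-05 for each, r = 0.781 without the 2 farthest mice). Grin2b also rose with thalamus markers (r = 0.401) and Grin1 with CA3 markers (r = 0.366), both passing by r alone. Gria4 was lower where granule cell markers were higher (r = -0.739, rho = -0.725), and higher with oligodendrocyte (r = 0.559), thalamus (r = 0.551) and CA3 markers (r = 0.454). Gria2 varied with granule cell markers (r = 0.387, rho = 0.367) and against thalamus (r = -0.494, rho = -0.419) and oligodendrocyte markers (r = -0.449, rho = -0.352), of which the relation with thalamus markers alone passed by rho. Grin2a also varied with granule cell markers (r = 0.446). Grin2c and Grin3a varied with markers of oligodendrocyte precursors (r = 0.508 and r = 0.506), and Grin3a with CA1 markers as well (r = 0.476). Microglia markers were lower where Grin1 (r = -0.413), Grin2b (r = -0.462) and Grin2d (r = -0.408) were higher, and of these Grin2b alone passed by rho. By rho but not by r, Gria2 passed with endothelium markers (rho = -0.404), Gria3 with microglia markers (rho = -0.384) and Gria4 with choroid plexus markers (rho = 0.501). Members and scores come from the same libraries, so they share depth and dissection.

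**Figure D5:**
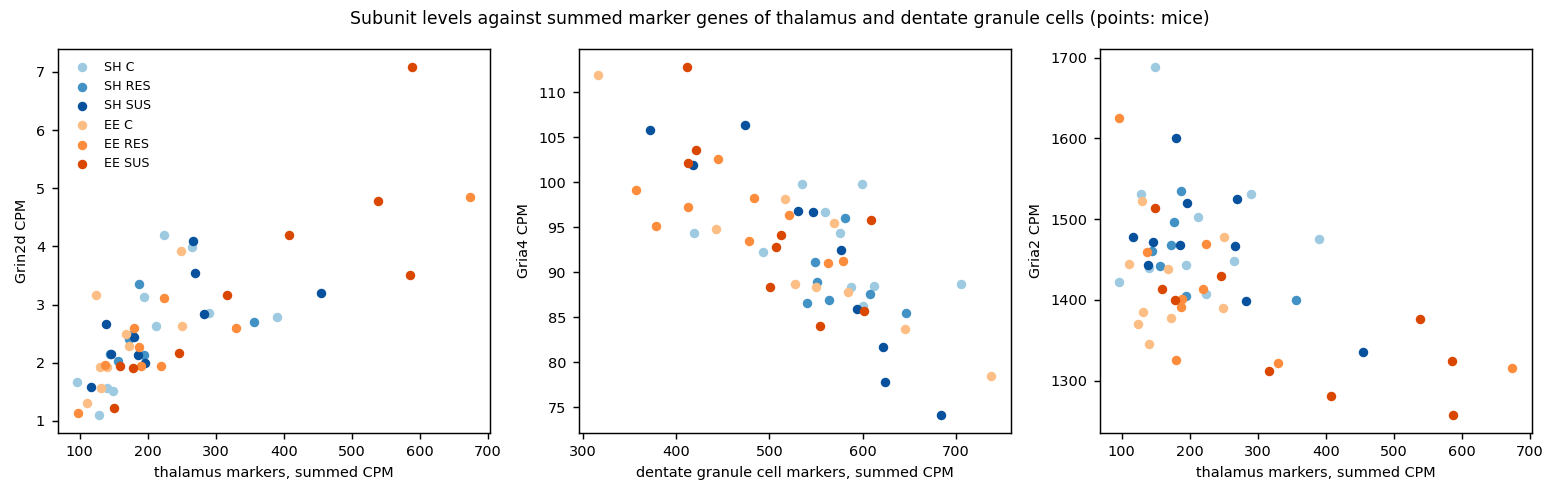
Grin2d against summed thalamus markers, Gria4 against summed granule cell markers and Gria2 against summed thalamus markers, all in CPM, with 1 point per mouse colored by group. Grin2d, at 1.10 to 7.09 CPM over the mice, tends to rise along the thalamus axis. The mouse with the highest thalamus sum, EE RES mouse 6, has 4.85 CPM. Gria4 tends to fall as granule cell markers rise.

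The genes most like each member over the mice were named by the highest Spearman's rho among 18282 other genes, as a description. Grin2b was closest to Ank3 (rho = 0.913), an ankyrin of the axon initial segment, Crebbp (0.878) and Tanc2 (0.876), a postsynaptic scaffold. Grin1 was closest to Cyfip2 (0.897), Cntnap1 (0.889) and Crmp1 (0.857), and Grin2a to Cacna1e (0.866), an R-type calcium channel, Shisa7 (0.848) and Dlgap2 (0.846), a postsynaptic scaffold. Grin2d was closest to Grid2ip (0.891), Cit (0.889) and Zfhx3 (0.884). The AMPA genes had Nexmif (0.810), Fgd4 (0.802) and Rsrc2 (0.774) for Gria2, Sorl1 (0.694), Cpne6 (0.688) and Dpm2 (0.657) for Gria1, Setd5 (0.770), Grin2b (0.750) and Nrg3 (0.748) for Gria3, and 9330182L06Rik (0.808), Dzank1 (0.791) and ENSMUSG00000029333 (0.791) for Gria4. Grin2c (Dusp8 at 0.661, Sash1 at 0.653, Cep170b at 0.640) and Grin3a (Ndst3 at 0.686, Cadm1 at 0.683, Met at 0.682) had the weakest neighbors together with Gria1.

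Of 50 partner genes, listed by role with earlier results of these data known, 49 were tested and Grin3b, the remaining GluN3 gene, was not (0.0838 CPM). Between housings 0 of 16 auxiliary subunits and assembly factors of AMPA receptors were called, with 11 lower in EE and a median log2 fold change of -0.02. Of the auxiliary genes, Frrs1l, an AMPA receptor biogenesis factor, had -0.02 (SE 0.02) and Cnih2, a cornichon auxiliary subunit, 0.05 (SE 0.04). Porcn, an acyltransferase that also acts in AMPA receptor assembly, had -0.05 (SE 0.02, edgeR adjusted p = 0.253). Cnih3, a relative of Cnih2, had 65.4 ± 9.29 CPM in EE and 72.3 ± 6.30 in SH (-0.15, SE 0.05, edgeR adjusted p = 0.0654). Of 13 scaffold and trafficking genes 0 were called, with 7 higher and 6 lower in EE and a median log2 fold change of 0.006. Among the lower ones Nsf had -0.03 (SE 0.02), Dlg2 -0.03 (SE 0.02) and Dlg3, which encodes the scaffold SAP102, -0.08 (SE 0.02, edgeR adjusted p = 0.0664). The largest log2 fold change of these 13 genes was positive, at 0.09.

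Of 8 kinase and phosphatase genes 0 were called between housings, with 5 higher and 3 lower in EE and a median log2 fold change of 0.004. Among the lower ones were Camk2b at -0.08 (SE 0.03, edgeR adjusted p = 0.100) and Ppp3ca, a calcineurin subunit, at -0.06 (SE 0.03, adjusted p = 0.226). The largest log2 fold change of these 8 genes was positive, at 0.11. Of 6 extracellular organizers 0 were called, with Olfm1 at -0.04 (SE 0.03) and Nptx1 at 0.08 (SE 0.05). Of 6 genes for co-agonist supply and RNA editing 1 was called, Srr, which encodes serine racemase, the enzyme that makes the NMDA receptor co-agonist D-serine. Srr had 92.2 ± 5.13 CPM in EE (n = 27, range 83.9 to 103.5) and 97.8 ± 6.46 in SH (n = 27, range 80.3 to 110.7), a log2 fold change of -0.09 (SE 0.02, edgeR adjusted p = 0.0301). The ranges overlapped. Srr was not called with unstranded counts (adjusted p = 0.0969), without the 5 mice of highest thalamus score (0.0735), with the 4 tissue scores in the model (0.0588) or with granule cell and oligodendrocyte scores (0.168), and it was called in 53 of 54 fits that left out 1 mouse, the exception being EE RES mouse 8 (0.0513). Adarb1, the editing enzyme of the Gria2 Q/R site, had a log2 fold change of 0.12 (SE 0.06, adjusted p = 0.317). Srr was the only partner called there, so 1 of 49 stood beside 2.42% of all genes tested.

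In RES mice 1 of 49 partners was called between housings, beside 0.273% of all genes tested. Gripap1 encodes the GRIP-associated protein GRASP1 of AMPA receptor recycling. Its lowest, median and highest levels were 75.9, 78.4 and 82.1 CPM in SH RES mice and 82.6, 85.7 and 94.0 in EE RES mice. The gap between these ranges comes from the values by which the gene was called. The share of all genes with such a gap was not counted. The log2 fold change of Gripap1 was 0.13 (SE 0.03, edgeR adjusted p = 0.0433). The adjusted p was 0.243 with the 4 tissue scores in the model, 0.258 with granule cell and oligodendrocyte scores and 0.0879 without the low-count filter. Leaving out 1 mouse lost Gripap1 in 11 of 54 fits, those without EE control mouse 4, EE RES mice 1, 2, 3 and 8, and SH RES mice 1, 2, 4, 5, 6 and 7, with adjusted p of up to 0.138. No partner was called in the other 12 comparisons or in the test over the 6 groups.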

How the data were processed

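For 55 libraries of the ventral dentate gyrus the authors deposited counts without normalization, as read pairs on each gene. Per their methods reads were aligned to GRCm38 with STAR and quantified with featureCounts, whereas the tables are laid out like STAR's own output of counts by strand. The reverse-strand column was used, since forward-strand counts were 3.51% to 4.13% of the sum of both strands. Unmapped (13.9% to 19.9% of pairs), multimapping (8.70% to 12.1%), unassigned (19.9% to 28.8%) and ambiguous rows (0.836% to 1.12%) stayed out of library sizes. Libraries of corticosterone-treated mice were not analyzed here. The 2 runs of EE control mouse 9 (r = 0.998) were summed. Of 45318 identifiers 44585 matched GENCODE vM21, which gave names, coordinates and exon lengths.

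The members and gene lists were chosen with earlier results of these data known. Counts of 54 mice were normalized by TMM, filtered with filterByExpr and fitted over 6 groups without covariates by the quasi-likelihood method of edgeR 4.0.16 (R 4.3.3), with Benjamini-Hochberg adjustment over 18283 genes and calls at an adjusted p below 0.05. Mice are the replicates, and the labels do not name litters or cages. CPM in the text is TMM-normalized, and relations used log2 CPM with a prior count of 2 and 100000 resamples in SciPy 1.17.1. Marker scores are means over a list of the z-scores of log2 CPM, each gene scaled over the 54 mice. All 10 members were named in every comparison. A partner gene was named when called, and otherwise up to 4 per role were examples, picked in part by highest CPM. The examples include Cnih3, Dlg3 and Camk2b, which had the smallest adjusted p of their roles between housings. The 3 genes nearest to each member were named by Spearman's rho. Alternatives were limma 3.58.1, DESeq2 1.42.0, other size factors, no low-count filter, unstranded counts, a replicate block, marker scores as covariates, each housing alone, 1 run of the repeated mouse, and each mouse left out. The count models were tested on simulated data with 200 changed genes. Some items are not reported here.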

Additional observations from a re-analysis of the deposited data

Results flagged for a closer look

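Of 60 sets of values, each subunit in each group, 4 held a mouse that stood apart by Dixon's criterion, which flags about 1 in 20 by chance. In Gria2, SH control mouse 7 had 1689 CPM, with the next mouse of its group at 1531, and EE RES mouse 7 had 1625 CPM, with the next at 1469. In Grin2c, EE SUS mouse 8 had 45.6 CPM, with the next at 34.2, and the same mouse had the highest Grin2d level of all mice. In Grin3a, SH SUS mouse 6 had 58.5 CPM, with the next at 47.4.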

How the results depend on the processing

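Of 17 summarized results on members, 16 kept their count under every alternative run. The exception was the number of members called between EE and SH, 1 in the report. It was 2 with DESeq2 (Gria2, adjusted p = 0.0214, and Gria1, 0.0290). It was 0 without the low-count filter (Gria2, adjusted p = 0.0783), with unstranded counts (0.0625), with 4 marker scores as covariates (0.0753), with granule cell and oligodendrocyte scores (0.353), without the 5 mice of highest thalamus score (0.0885) and by the study's criterion. The granule cell and oligodendrocyte scores and the removal of the 5 mice were chosen after seeing the data. Leaving out 1 mouse at a time gave 0 to 2 members. Gria2 was lost in 26 of 54 such fits and kept in 28, with a log2 fold change of -0.08 to -0.07 and an adjusted p of 0.0147 to 0.0783, and Gria1 was called in 4. The mice whose removal lost Gria2 were SH control 1, 5, 7 and 8, SH RES 1, 2, 3, 6 and 7, SH SUS 5, 7, 8, 9 and 10, EE control 1, 2, 5 and 9, EE RES 1, 3, 6 and 8, and EE SUS 1, 2, 5 and 8. With the replicate block 2 members were called (Gria2, 0.0457, and Gria3, 0.0460), but the labels do not say that mice of 1 number share anything, and r of deviations over 126 same-numbered pairs ran from -0.258 to 0.440 with 32 above 0.1 (7 of 15 for replicate 3), so the numbers were not taken as pairs. Of 54 mice 11 were closest to a mouse of their own number. The number to expect if nothing were shared was not worked out, and what these mice may share was not tested. Among differences that were not called, 5 of 10 members between EE and SH and 7 of 10 between EE SUS and EE control mice turned direction in at least 1 alternative, Gria4 between housings from 0.05 to -0.01 on the log2 scale with granule cell and oligodendrocyte scores, and Grin2d in EE SUS against EE control mice from 0.51 to -0.06 with the 4 marker scores. The number of partner genes called between EE and SH, 1 in the report, was 3 with DESeq2 (Srr, Cnih3, Dlg3), 2 with the replicate block (Srr, Cnih3) and 2 with the 4 marker scores (Cnih3, Shisa9), and 0 with unstranded counts, granule cell and oligodendrocyte scores or the 5 mice left out. Between EE RES and SH RES mice, also 1, it was 3 with DESeq2 and with the replicate block (Gripap1, Cacng3 and Srr, at 0.0341 and 0.0487 for Srr), 2 without the 5 mice (Gripap1, Cacng3), and 0 without the low-count filter or with either set of scores. The cause of these shifts was not tested. Depth limits Grin2d most, at a median of 51.5 counts per mouse.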
